A study of Mus musculus with 18 samples.

Results

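The early growth response (EGR) factors Egr1, Egr2, Egr3 and Egr4 and their corepressors Nab1 and Nab2 were followed through naive and tolerized CD4 T cells at rest and after stimulation. These 6 genes, of 37991 in the count tables, were chosen by name, with earlier results of these data known, and found by their Ensembl identifiers. The cells came from Tg4-H2u mice aged 6 to 12 weeks, whose CD4 T cells carry a transgenic T cell receptor (TCR) for the acetylated N-terminal peptide of myelin basic protein, and were enriched from spleen as a bulk population. Tolerized mice had received 7 subcutaneous doses of the high-affinity 4Y form of this peptide at rising amounts, 3 to 4 days apart, and control mice PBS on the same schedule. The control cells, called naive here, are predominantly rather than wholly naive. Resting cells (N_0 from control mice and T_0 from tolerized mice) were taken 2 h after a last injection of PBS. Antigen-stimulated cells (N_Ag and T_Ag) were taken 2 h after a last injection of 80 µg of the peptide. Cells of the groups N_PI and T_PI were treated outside the animal for 2 h with PMA and a calcium ionophore, which together bypass the receptor. Each of the 6 groups held 3 libraries, 18 in all. The labels do not tie libraries to single animals, so that p-values measure the spread between these libraries.

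EGR proteins are zinc finger transcription factors encoded by immediate-early genes, which are transcribed within minutes of receptor signals through the RAS-ERK cascade and its nuclear targets, the ETS factors and SRF. In T cells, Egr1 is linked to activation, and Egr2 and Egr3 to anergy, in which they are known to raise the ubiquitin ligase Cblb and are linked to the diacylglycerol kinases. Nab1 and Nab2 bind Egr1, Egr2 and Egr3, but not Egr4, and repress their target genes by recruiting the NuRD complex, and Nab2 is itself an EGR target gene, so that the pair forms a brake on the factors.

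Promoter sequences of the table drawn from RefSeq (GRCm38.p6, 250 bases before to 50 after a start site) were at hand for 4 of the 6 genes, Egr2, Egr4, Nab1 and Nab2. They are shown because the genes rose together after stimulation. Both strands were searched for the CArG box that SRF binds, for the CRE (TGACGTCA) and its core CGTCA, for the AP-1 site TGANTCA, for the ETS site CCGGAA and for the EGR site GCGNGGGCG. The core lies within the CRE. Of the 32851 windows in the table, 1.63% held a CArG box, 1.79% the full CRE, 20.8% the core, 7.81% the AP-1 site, 14.9% the ETS site and 5.55% the EGR site. The stretches below, written 5′ to 3′ on the strand of the gene, have the CArG boxes and CRE cores of Egr2 and Egr4 and the EGR sites of Nab1 in capitals.
Egr2, start site 67537566, chr10:67537490-67537507 (+): ttctCCTTTTTTGGaaag
Egr2, start site 67537869, chr10:67537793-67537822 (+): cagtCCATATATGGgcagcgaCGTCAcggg
Egr4, start site 85513589, chr6:85513684-85513776 (-): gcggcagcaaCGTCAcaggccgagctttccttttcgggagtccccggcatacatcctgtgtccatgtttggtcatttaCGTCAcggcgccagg
Nab1, start site 52500448, chr1:52500468-52500599 (-): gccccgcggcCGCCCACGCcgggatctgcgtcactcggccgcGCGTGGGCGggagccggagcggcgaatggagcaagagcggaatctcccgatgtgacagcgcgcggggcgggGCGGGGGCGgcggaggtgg

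The 5 listed start sites of Egr2 held CArG boxes in 4 of their windows, 3 of which cover the same box, followed by a CRE core. The window of the start site at 67537566 also held the ETS site. In the Egr4 promoter the CRE core occurred at 2 positions, and no CArG box matched. The Nab1 promoter held 3 EGR sites, 1 of them on the opposite strand, and a CRE core, while none of these letters was found in the Nab2 window. A match is a description of the letters in a window and not evidence of binding.

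In the genome build of the count files (NCBIM37, mm9), Egr2 lies on chromosome 10 from 66998223 to 67004936 on the plus strand and Nab2 on the same chromosome from 127097974 to 127105624 on the minus strand. Egr4 lies on chromosome 6 from 85461125 to 85463583 and Nab1 on chromosome 1 from 52514138 to 52557523, both on the minus strand. Egr1 is on chromosome 18 and Egr3 on chromosome 14. The exons of Nab2 share 1050 bp with the antisense transcript Gm16229, 151 bp with Tmem194 and 40 bp with Stat6, and 8 exonic bp of Egr1 are shared with Gm17507. The sources used here do not say whether reads were counted by strand or how reads in shared exons were treated. The overlap could therefore change the Nab2 count, in a direction that is not known.

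Total counts were 10758571 to 24119489 per library and were highest after PI. All 6 CD4 T cell markers, among them Cd3e and Cd4, were present in each group, with summed normalized counts (counts scaled to a common library size) of 11886 to 13547 in N_Ag, 16555 to 19168 in T_Ag and 22314 to 51047 in the other groups. Cd28 alone had means of 26002 in N_PI and 26034 in T_PI, against 4260 in N_0 and 4032 in T_0. After PI 3 of the 6 markers were higher and 3 lower than at rest in each state. Of these 6 markers, 5 were higher in T_Ag than in N_Ag (median log2 fold change 0.58), and all 6, which antigen lowered in naive cells, had a called positive difference between the tolerized and the naive antigen response (median 0.89). The size of these differences is near that of Egr1 and Nab2 below, and their part in those results was not tested. Of 12 myeloid markers, 8 were higher in T_0 than in N_0, 9 were higher and 2 lower in T_Ag than in N_Ag, and 8 were higher in T_PI than in N_PI. Their summed normalized counts were 650 to 877 in N_0, 3215 to 4890 in T_0, 531 to 1423 in N_Ag, 3134 to 5167 in T_Ag, 472 to 793 in N_PI and 1173 to 1535 in T_PI, and the neutrophil genes Ngp, Ltf and Camp had no read in N_PI. The 3 regulatory T cell markers were all higher in T_0 than in N_0 and in T_PI than in N_PI, and 1 of them in T_Ag than in N_Ag. Of 8 erythroid markers, 1 was called between the states at rest, 1 after antigen and 0 after PI, and of 6 B cell markers 0 in all 3 comparisons. The erythroid markers still had median log2 fold changes, tolerized over naive, of 3.08 at rest, 1.24 after antigen and 2.77 after PI. Summed erythroid counts were 32.4 to 208 in N_0 and 236 to 2273 in T_0. They were 91.6 to 344 in N_Ag and 90.6 to 1327 in T_Ag. After PI they were 14.4 to 70.7 in N_PI and 233 to 396 in T_PI. Reads of 4 Y-linked genes marked all PI libraries, T_0 replicates 1 and 2 and T_Ag replicate 3 as male (5111 to 11652 reads), and the others as female (4 to 18 reads). In bulk RNA, fewer cells of a type and less RNA per cell cannot be told apart.

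At rest, Egr1 was the most abundant EGR transcript, Egr4 was close to absent, and 3 of the 6 genes, Egr1, Egr3 and Nab2, were lower in tolerized than in naive cells, beside 12% of the 17240 tested genes called lower in that comparison. A gene was called at an adjusted p under 0.05 in edgeR's quasi-likelihood test. Egr1, the founding member of the family, had normalized counts of 588, 539 and 747 in the N_0 libraries and 467, 516 and 423 in the T_0 libraries. The groups did not overlap, and the difference was -0.41 on the log2 scale (SE 0.12, adjusted p = 0.0204). Egr2 stood at 139, 51.2 and 116 in N_0 and at 74.3, 106 and 62.3 in T_0. Its ranges overlapped and it was not called (log2 fold change -0.34, SE 0.28). Egr3 stood at 115, 82.5 and 135 in N_0 and at 84.0, 76.0 and 42.2 in T_0. It was called lower (-0.71, SE 0.22, adjusted p = 0.0308), although T_0 replicate 1 lay above N_0 replicate 2. Egr4 had at most 1 read in an N_0 library and at most 3 in a T_0 library, and no fold is given for it.

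The corepressors were expressed at rest in both states. Nab1 had normalized counts of 1011, 1029 and 1049 in N_0 and of 950, 942 and 943 in T_0, a small difference without overlap that was not called (-0.12, SE 0.07). Nab2 was at 517, 458 and 471 in N_0 and at 272, 331 and 344 in T_0. All T_0 libraries lay below all N_0 libraries, with a fall by 0.61 on the log2 scale (SE 0.10, adjusted p = 0.00019). The calls of Egr1 and Egr3 rested on few libraries. Egr1 was no longer called without T_0 replicate 1, T_0 replicate 3 or N_0 replicate 3 (adjusted p = 0.0666, 0.0782 and 0.141), and Egr3 not without T_0 replicate 3, N_0 replicate 1 or N_0 replicate 3 (0.0758, 0.0729 and 0.134). With only N_0 and T_0 in the model neither gene was called (Egr1 -0.34 and Egr3 -0.63, adjusted p = 0.136 and 0.183). Without the filter on low counts Egr3 was not called either (-0.71, adjusted p = 0.0692). Egr2 became called without N_0 replicate 2 (-0.66, adjusted p = 0.0151). With scores of erythroid and myeloid markers in the model none of the 6 genes was called (Egr1 -0.50, Egr3 -1.003 and Nab2 -0.82, adjusted p = 0.897, 0.725 and 0.568), although these values were no smaller. The female libraries alone leave 1 T_0 library, and gave -0.56 for Egr1, -1.39 for Egr3 and -0.49 for Nab2.

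**Figure D1:**
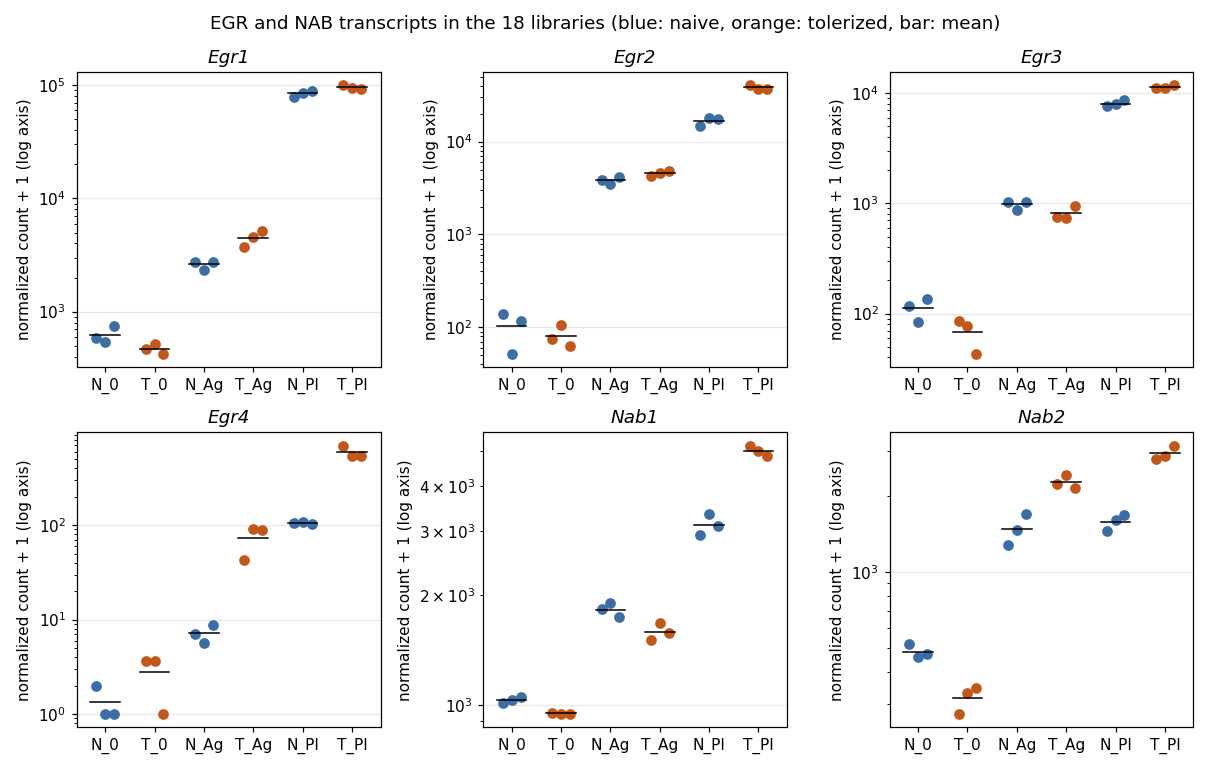
Normalized count plus 1 of each gene (log axis) in the 3 libraries of each group, with points for libraries and a bar for their mean (blue for naive, orange for tolerized cells). Egr4 stays below 8 normalized counts in N_Ag and lies between 41.8 and 89.4 in T_Ag, and every EGR gene is highest after PI.

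At 2 h after antigen, Egr1, Egr2, Egr3, Nab1 and Nab2 were called higher than at rest in naive and in tolerized cells, beside 32.1% and 29.9% of tested genes called higher in these comparisons. Egr4, which was tested only because its stimulated groups are high, is given apart. Egr2 rose most among the other 5 genes, followed by Egr3 and Egr1 in either state, and the corepressor genes rose less. Egr1 reached 2748, 2341 and 2755 normalized counts in the N_Ag libraries and 3707, 4525 and 5127 in the T_Ag libraries. Every T_Ag library lay above every N_Ag library. Its log2 fold change over rest was 2.07 (SE 0.12, adjusted p = 8.1e-13) in naive and 3.25 (SE 0.13, adjusted p = 9.4e-16) in tolerized cells. The tolerized response was larger by 1.18 on the log2 scale (SE 0.17, adjusted p = 2.6e-05).

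Egr2, which is needed for anergy programs in CD4 T cells, reached 3829, 3459 and 4141 in N_Ag and 4292, 4548 and 4762 in T_Ag. These were rises of 37.1-fold (log2 5.22, SE 0.24, adjusted p = 4.6e-11) and 55.8-fold (log2 5.80, SE 0.25, adjusted p = 2.5e-11). The difference between these responses was not called (0.59, SE 0.33, adjusted p = 0.256), but it was without N_0 replicate 2 (0.92, adjusted p = 0.0028). Egr3, the closest partner of Egr2 in T cells, reached 1037, 873 and 1027 in N_Ag and 753, 739 and 951 in T_Ag. The ranges of the antigen groups overlapped. It rose 8.81-fold (log2 3.14, SE 0.18) in naive cells and by 3.58 on the log2 scale (SE 0.19) in tolerized cells, and the difference between the responses was not called (0.45, SE 0.26, adjusted p = 0.271), but it was with the Y-linked level as a covariate (0.64, adjusted p = 0.0206).

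Egr4, the member that lacks the NAB binding region, showed the widest gap between the states. It had 5, 4 and 7 reads in the N_Ag libraries against 38, 75 and 85 in the T_Ag libraries. As normalized counts these were 5.99, 4.70 and 7.70 against 41.8, 89.4 and 87.1, so that the lowest T_Ag library stood well above the highest N_Ag library. Against a floor of 3 counts per library at rest, Egr4 was at least 2.03-fold higher in N_Ag than in N_0 and at least 26.7-fold higher in T_Ag than in T_0. The difference between these responses could not be estimated from groups so near 0 at rest.

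Nab1 rose to 1835, 1906 and 1740 in N_Ag and to 1510, 1679 and 1573 in T_Ag, or 1.77-fold and 1.68-fold over rest (log2 0.83 and 0.75, SE 0.07 for both). The difference between its responses was not called (-0.08, SE 0.09, adjusted p = 0.621). Nab2 behaved otherwise. It reached 1279, 1463 and 1685 in N_Ag and 2229, 2420 and 2143 in T_Ag, which was 3.06-fold over rest (log2 1.61, SE 0.10) in naive and 7.17-fold (log2 2.84, SE 0.10) in tolerized cells. The tolerized response of Nab2 exceeded the naive one by 1.23 (SE 0.14, adjusted p = 8.6e-07). Egr1 and Nab2 were the 2 genes with a called difference in antigen response with all libraries and no covariate, beside 14.6% of tested genes with a positive difference (a larger rise or smaller fall in tolerized cells) and 7.09% with a negative one. For both genes the difference includes the lower resting level in T_0, a call that rested on few libraries for Egr1. With the female libraries alone, which leave 1 T_0 library, these differences were 1.22 for Egr1 and 1.14 for Nab2. With scores of erythroid and myeloid markers in the model they were 1.23 for each (adjusted p = 0.00021 for Egr1 and 2.6e-06 for Nab2).

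**Figure D2:**
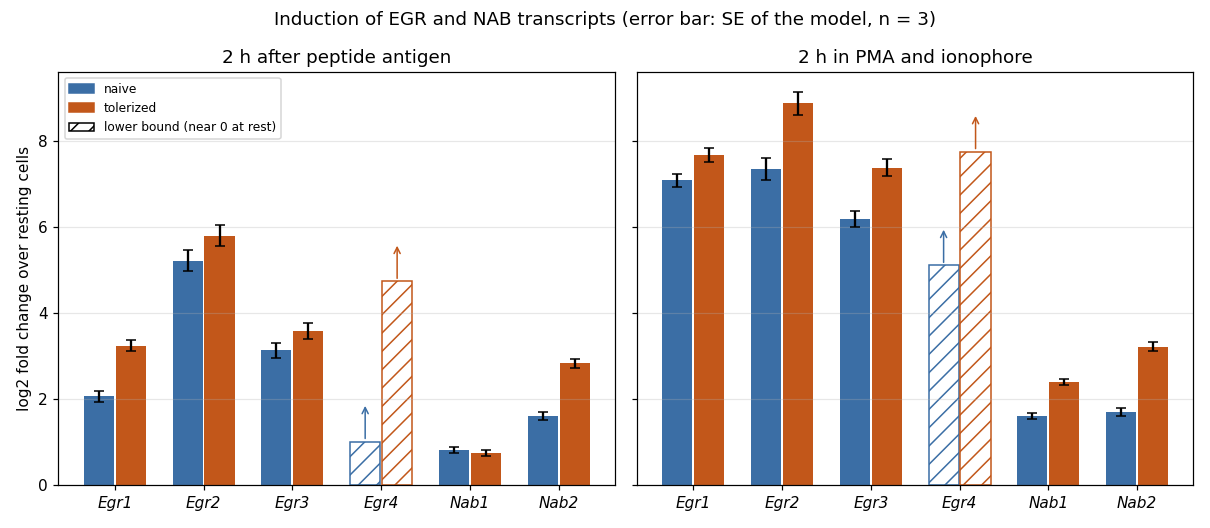
Log2 fold change over resting cells 2 h after antigen (left) and 2 h after PMA with ionophore (right), in naive (blue) and tolerized cells (orange), with the SE of the model and 3 libraries per group. The hatched Egr4 bars are lower bounds from a floor of 3 counts per library at rest, and Nab2 shows a larger bar in tolerized than in naive cells under both stimuli.

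Between the antigen-stimulated groups, Egr1, Egr4 and Nab2 were higher in tolerized cells and Nab1 was lower, beside 20.9% of tested genes called higher and 18.5% called lower. Egr4 differed most, by 11.6-fold (log2 3.53, SE 0.36, adjusted p = 1.6e-07). Egr1 was 1.70-fold higher (log2 0.77, SE 0.11, adjusted p = 1.7e-05) and Nab2 1.53-fold higher (log2 0.62, SE 0.09, adjusted p = 1.3e-05). Nab1 was lower by a small margin (-0.20, SE 0.07, adjusted p = 0.0159), with no overlap between the groups. Egr2 was not called (0.25, SE 0.19, adjusted p = 0.317), although its T_Ag libraries all lay above the N_Ag libraries, and it was called with N_Ag and T_Ag alone in the model (0.27, SE 0.08, adjusted p = 0.0152). Egr3 was not called (-0.26, SE 0.15, adjusted p = 0.177), but was with the Y-linked level as a covariate (-0.45, adjusted p = 0.0028).

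These differences were compared with the other values that moved between the antigen groups. Within the female libraries, 2 in T_Ag and 3 in N_Ag, the log2 fold changes were 3.38 for Egr4 (adjusted p = 0.00015), 0.65 for Egr1 (adjusted p = 0.0055) and 0.66 for Nab2 (adjusted p = 0.00037), and Egr3 was called lower (-0.39, adjusted p = 0.0484). Nab1 was no longer called there (-0.20, adjusted p = 0.0613), nor with N_Ag and T_Ag alone in the model (-0.19, adjusted p = 0.0528), nor without T_Ag replicate 1 (-0.17, adjusted p = 0.0703) or N_Ag replicate 2 (-0.17, adjusted p = 0.0776), with values that moved little. With the erythroid and myeloid marker scores in the model, Egr4 was still called (3.78, adjusted p = 0.0246), whereas Egr1 (0.73, adjusted p = 0.234) and Nab2 (0.41, adjusted p = 0.394) were not. Their SE rose to 0.31 for Egr1 and 0.23 for Nab2 in this fit. Summed myeloid counts did not overlap between the groups (531 to 1423 in N_Ag, 3134 to 5167 in T_Ag). The fit therefore cannot tell the marker scores and the cell state well apart, and the part of myeloid cells in these differences was not tested.

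**Figure D3:**
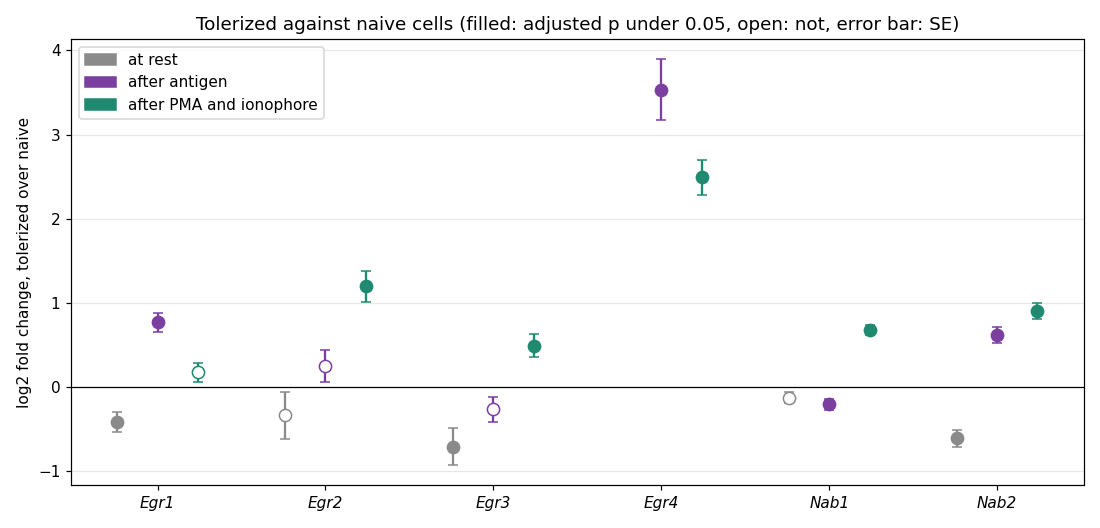
Log2 fold change of tolerized over naive cells at rest, after antigen and after PMA with ionophore, with the SE and 3 libraries per group (filled points have an adjusted p under 0.05, and Egr4 at rest is left out for want of reads). Egr4 has the largest difference after either stimulus, and Nab2 lies below 0 at rest and above 0 after both stimuli.

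After PMA with ionophore, Egr1, Egr2, Egr3, Nab1 and Nab2 were called higher than at rest in both states, beside 28.6% of tested genes called higher in naive and 32% in tolerized cells. Resting cells were taken from the animals, and no group was cultured without the stimulus. Culture and PI therefore cannot be told apart in any comparison of PI with rest. The EGR transcripts reached levels far above those after antigen, and the corepressors much less so. Egr1 had 79548, 84966 and 89883 normalized counts in the N_PI libraries and 100064, 94703 and 92582 in the T_PI libraries, or 136-fold over rest (log2 7.08, SE 0.15) in naive and 204-fold (log2 7.67, SE 0.15) in tolerized cells. The T_PI libraries lay above the N_PI libraries, but the difference of 0.18 (SE 0.11, adjusted p = 0.242) was not called with all groups in the model. It was called with N_PI and T_PI alone (0.20, adjusted p = 0.0289) or with the male libraries alone (adjusted p = 0.0314).

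Egr2 had 14543, 17857 and 17609 normalized counts in N_PI and 40285, 37194 and 37082 in T_PI. It had the largest rise of the 5 genes other than Egr4 in tolerized cells, 469.7-fold (log2 8.88, SE 0.27) against 163-fold (log2 7.34, SE 0.26) in naive cells. The state difference after PI was 2.29-fold (log2 1.20, SE 0.19, adjusted p = 0.00014). Egr3 had 7601, 7985 and 8581 in N_PI and 11083, 11070 and 11787 in T_PI, and was 1.40-fold higher in T_PI (log2 0.49, SE 0.14, adjusted p = 0.0097). The groups did not overlap for either gene. Egr4 had 104, 107 and 103 in N_PI and 696, 533 and 535 in T_PI, which was at least 34.5-fold over N_0 and at least 216-fold over T_0. T_PI exceeded N_PI by 5.63-fold (log2 2.49, SE 0.21, adjusted p = 6.4e-09).

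Nab1 had 2930, 3354 and 3109 normalized counts in N_PI and 5171, 4996 and 4848 in T_PI, and Nab2 had 1447, 1603 and 1676 in N_PI and 2795, 2884 and 3159 in T_PI. Neither gene overlapped between the states. Nab1 was 1.60-fold higher (log2 0.68, SE 0.06, adjusted p = 1.2e-08) and Nab2 1.87-fold higher (log2 0.90, SE 0.09, adjusted p = 4.8e-08) in tolerized cells. In all, 5 of the 6 genes were called higher in T_PI than in N_PI, beside 18.2% of tested genes. All libraries of both groups were male. With the marker scores in the model, Egr2 (0.98, adjusted p = 0.0606) and Egr3 (0.23, adjusted p = 0.473) were no longer called, and Egr4, Nab1 and Nab2 were.

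The response to PI was larger in tolerized than in naive cells for 5 of the 6 genes, beside 12.7% of tested genes. The difference was 1.53 for Egr2 (SE 0.33, adjusted p = 0.0047), 1.51 for Nab2 (SE 0.14, adjusted p = 5.3e-08), 1.20 for Egr3 (SE 0.26, adjusted p = 0.0034), 0.80 for Nab1 (SE 0.09, adjusted p = 1.2e-06) and 0.59 for Egr1 (SE 0.17, adjusted p = 0.0143). Egr1 and Nab2 had called differences under both stimuli, which share the resting libraries. For Egr1, Egr3 and Nab2 the PI difference includes the lower resting level in T_0, a call that rested on few libraries for Egr1 and Egr3. With the marker scores in the model the PI difference was no smaller but no longer called for Egr1 (0.59, adjusted p = 0.258) and Egr2 (1.76, adjusted p = 0.0795). The N_0 libraries were female and the N_PI libraries male, so that sex and the PI treatment cannot be told apart in naive cells. Within the male tolerized libraries, 2 in T_0 and 3 in T_PI, the rises were 7.63 for Egr1, 8.75 for Egr2, 7.17 for Egr3, 2.43 for Nab1 and 3.31 for Nab2 on the log2 scale.

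Between the stimuli, 5 genes were higher after PI than after antigen in naive cells and 6 in tolerized cells, beside 33.5% and 31.5% of tested genes. The gap was widest for Egr1 in naive cells, 32.4-fold (log2 5.02, SE 0.13), while Egr2 was 4.38-fold and Egr3 8.23-fold higher. In tolerized cells Egr1 was 21.5-fold, Egr2 8.42-fold and Egr3 13.9-fold higher. Nab2 stood apart from the factors, with 1.07-fold in naive cells (log2 0.09, SE 0.09, adjusted p = 0.389) and 1.30-fold in tolerized cells (log2 0.38, SE 0.09, adjusted p = 0.00086). Antigen thus brought Nab2 close to its PI level, whereas it brought Egr1 to a small fraction of it. The route of stimulation differed too, since antigen was given in the animal and PI in culture.

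The makeup of the EGR pool was then compared on a length-scaled level (normalized counts per kb of exon), which allows different genes to be set side by side. Egr1 made up 66.0% ± 4.79 (SD, n = 3) of the summed EGR level in N_0 and 68.7% ± 4.96 in T_0. After antigen its share was 32.0% ± 0.489 in N_Ag and 42.6% ± 2.29 in T_Ag. After PI it was 72.4% ± 0.566 in N_PI and 61.6% ± 0.663 in T_PI. The naive pool was thus shared differently under each stimulus, with Egr2 the largest part after antigen and Egr1 after PI.

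Egr2 made up 9.55% ± 3.53 in N_0 and 10.6% ± 1.59 in T_0. It rose to 42.6% ± 1.04 in N_Ag and 39.9% ± 2.40 in T_Ag, and was 13.0% ± 0.802 in N_PI and 22.4% ± 0.328 in T_PI. Egr2 exceeded Egr1 in N_Ag, whereas in T_Ag they were close and their order turned with the longest transcript as gene length (40.0% for Egr1 and 43.0% for Egr2). The share of Egr3 was 25.3% ± 0.555 in N_Ag and 16.5% ± 1.25 in T_Ag, and it was 24.4% in N_0, 20.4% in T_0, 14.5% in N_PI and 15.4% in T_PI. Egr4 made up no more than 0.998% ± 0.309, which it did in T_Ag, and 0.547% ± 0.0678 in T_PI. The exon model of Egr3 is short, at 1469 bp against 3100 bp for Egr1 and 3398 bp for Egr2, so its share depends on that annotation.

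The balance of the corepressors differed between rest and antigen. The ratio of Nab2 to Nab1 (both per kb) was 0.650 ± 0.0515 in N_0 and 0.465 ± 0.0582 in T_0, so that Nab1 led at rest. It was 1.13 ± 0.196 in N_Ag, with libraries from 0.968 to 1.34 on both sides of 1, and 1.98 ± 0.0805 in T_Ag. After PI it was 0.699 ± 0.0439 in N_PI and 0.819 ± 0.0786 in T_PI, back below 1. The T_Ag libraries, at 1.89 to 2.05, were the only ones near a ratio of 2, and the overlap of Nab2 with antisense genes applies to each of these ratios.

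**Figure D4:**
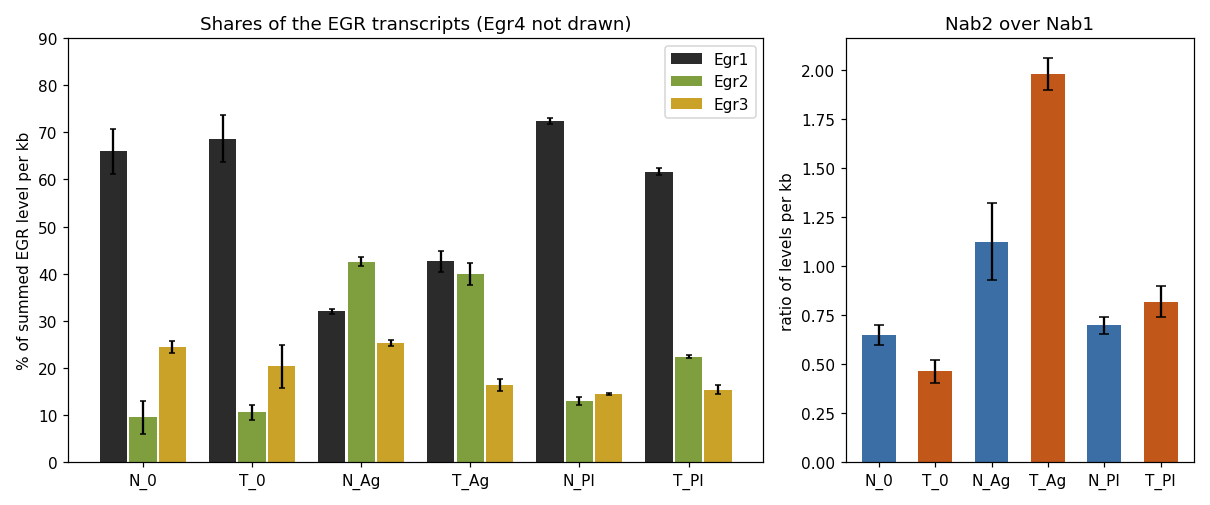
Share of Egr1, Egr2 and Egr3 in the summed length-scaled level of the 4 EGR transcripts in each group (left) and the ratio of Nab2 to Nab1 per kb (right), as means with SD over 3 libraries. Egr2 exceeds Egr1 in N_Ag, with 42.6% against 32.0%, and the Nab2 to Nab1 ratio is highest in T_Ag at 1.98.

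Genes reported elsewhere as EGR targets in lymphocytes did not move as a block between the antigen groups. Of 22 such genes, 9 were higher and 9 lower in T_Ag than in N_Ag, beside 20.9% and 18.5% of all tested genes, with a median log2 fold change of -0.00028 against 0.01 over all tested genes. The inhibitory receptor Lag3 was higher, at 2685 ± 319 against 138 ± 29.8 normalized counts (log2 4.28, SE 0.34, adjusted p = 5.8e-07), as was the adhesion receptor Crtam, at 1452 ± 228 against 204 ± 46.8. Dgka, which blunts diacylglycerol signals, was at 3769 ± 691 in T_Ag and 1301 ± 114 in N_Ag (log2 1.53, SE 0.12, adjusted p = 4.8e-09). Dgkz was higher by 0.35 (adjusted p = 0.0015) and the costimulatory receptor Tnfrsf9 by 0.67 (adjusted p = 0.0395).

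Other listed targets were lower in T_Ag. The stress gene Ndrg1, which is tied to T cell anergy, was at 287 ± 101 against 2870 ± 301 in N_Ag (log2 -3.32, SE 0.22, adjusted p = 4.6e-08). The cytokine gene Il2 was at 717 ± 175 against 4452 ± 1209 (log2 -2.63, SE 0.25) and the cell cycle inhibitor Cdkn1a at 127 ± 29.1 against 556 ± 17.1 (log2 -2.12, SE 0.18). The ubiquitin ligase Cblb was lower by a small amount (-0.30, SE 0.10, adjusted p = 0.0146), and the ligase Itch was not called (0.05, SE 0.07, adjusted p = 0.653).

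In the difference between antigen responses, 5 of the 22 targets had a positive difference and 10 a negative one, beside 14.6% and 7.09% of all tested genes, with a median of -0.56 against 0.05 over all tested genes. Dgka, which antigen lowered in both states, fell less in tolerized cells (1.72, SE 0.16, adjusted p = 2.9e-07). Crtam rose more (2.21, SE 0.30), and the cell cycle inhibitor Cdkn1b, which antigen also lowered, fell less (1.10, SE 0.15, adjusted p = 7.8e-06). Cdkn1a rose less (-3.02, SE 0.52), as did Sema7a, a membrane-anchored semaphorin (-2.53, SE 0.35), and Ndrg1 (-2.16, SE 0.33). Cblb rose less as well (-0.88, SE 0.14, adjusted p = 4.2e-05), and Dgkz had a difference of 0.43 (adjusted p = 0.0097), while Lag3, Tnfrsf9, Itch and Il2 were not called.

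**Figure D5:**
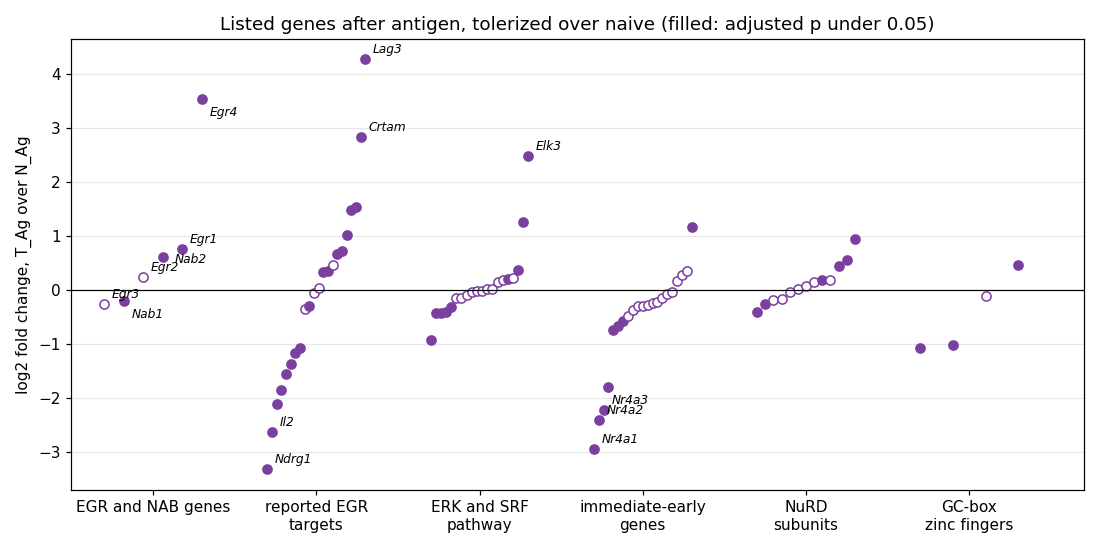
Log2 fold change of T_Ag over N_Ag for the 6 EGR and NAB genes and for each tested gene of 5 gene lists (each point is 1 gene, filled at an adjusted p under 0.05). The reported EGR targets spread to both sides of 0, from -3.32 for Ndrg1 to 4.28 for Lag3, and the NR4A genes are the lowest of the immediate-early genes.

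Of 21 other immediate-early genes, 1 was higher, 7 were lower and 13 were not called in T_Ag against N_Ag, beside 20.9% higher and 18.5% lower of all tested genes (median -0.29 against 0.01). In the response difference 2 were positive, 9 negative and 10 not called, beside 14.6% and 7.09% (median -0.76 against 0.05). The orphan nuclear receptor gene Nr4a1 was at 8211 ± 1379 in T_Ag against 63570 ± 5769 in N_Ag (log2 -2.95, SE 0.26, adjusted p = 1.1e-06), and Nr4a2 and Nr4a3 were lower by 2.41 and 2.22 on the log2 scale. The AP-1 gene Jun was the 1 that was higher (1.18, SE 0.19, adjusted p = 0.00024), and Fos was not called (-0.29, SE 0.27, adjusted p = 0.431). Antigen lowered Jun in naive cells (-0.80, SE 0.19), and it was not called in tolerized cells (0.22, SE 0.19), a difference of 1.01 (SE 0.27). The other positive difference was that of the zinc finger gene Klf6 (0.37, SE 0.12), and Nr4a2 (-3.91, SE 0.14), Fosl2 (-2.91, SE 0.14) and Nr4a1 (-1.71, SE 0.35) rose less in tolerized cells. After PI, all 21 were higher than at rest in both states, beside 28.6% of tested genes in naive and 32% in tolerized cells. Culture and PI cannot be told apart in this comparison.

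Of 20 genes of the ERK and SRF pathway that induces EGR transcription, 4 were higher and 5 lower in T_Ag than in N_Ag (median -0.02 against 0.01), near the shares of 20.9% and 18.5% over all tested genes. The ETS factor gene Elk3 was at 703 ± 117 in T_Ag and 126 ± 13.1 in N_Ag (log2 2.48, SE 0.11, adjusted p = 5.3e-14), against 966 ± 62.0 in T_0 and 697 ± 28.9 in N_0. Mapk3, which encodes ERK1, was higher in T_Ag (1.26, SE 0.19), and so was Creb1 (0.37, SE 0.07). Elk1 was lower (-0.92, SE 0.13), as was the RAF gene Braf (-0.42, SE 0.08). In the response difference 8 were positive and 1, Elk1 (-0.92, SE 0.18), was negative (median 0.08 against 0.05), beside 14.6% and 7.09%, with Elk3 (2.01, SE 0.14), Mapk3 (1.32, SE 0.24) and the RAS activator Rasgrp1 (0.60, SE 0.12) the largest. Antigen lowered Elk3, Mapk3 and Rasgrp1 in both states, so their positive differences are smaller falls in tolerized cells. The log2 fold changes over rest were -2.47, -3.30 and -1.21 in naive cells and -0.46, -1.98 and -0.61 in tolerized cells.

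The NuRD complex, through which NAB proteins repress, was present throughout. Of its 13 listed genes, 4 were higher and 2 lower in T_Ag than in N_Ag (median 0.08 against 0.01), beside 20.9% and 18.5% of all tested genes. In the response difference 3 were positive and 0 negative (median 0.24 against 0.05), beside 14.6% and 7.09%. Mta3 (0.94, SE 0.12), Mbd2 (0.56, SE 0.07) and Chd3 (0.45, SE 0.08) were higher in T_Ag and had the 3 positive differences (0.74, 0.67 and 0.49), while Hdac2 (-0.40, SE 0.08) and Chd4 (-0.26, SE 0.07) were lower. Antigen lowered Mta3, Mbd2 and Chd3 less in tolerized cells (log2 -1.91, -0.25 and -0.50) than in naive cells (-2.64, -0.92 and -0.99). Of 5 further zinc finger genes whose proteins bind GC-rich boxes, 4 were tested. In T_Ag against N_Ag 1 was higher and 2 lower, beside 20.9% and 18.5% of all tested genes. In the response difference 1 was positive and 2 negative, beside 14.6% and 7.09%. Sp3 was higher in T_Ag (0.47, SE 0.08) with a positive response difference (0.75, SE 0.11). It too fell less after antigen in tolerized (log2 -0.62) than in naive cells (-1.37). Sp4 (-1.02, SE 0.09) and Zfp281 (-1.07, SE 0.09) were lower with negative ones (-0.75 and -0.60).

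The genes whose log2 CPM followed each of the 6 most closely over the 18 libraries were also listed, among 11554 genes whose mean normalized count reached 50 in some group. For Egr1 these were Nfkbiz (Pearson r = 0.996), Gng5, Fbxo30, Phlda1 and Ifrd1, for Egr2 they included Ier5 (0.990), Fosl1, Cd274 and Mapkapk3, and for Egr3 Tgif2 (0.989), Tnf, Hiat1, Srsf4 and Ifrd1. For Egr4 they were Twsg1 (0.985), Med7, Slco4a1, Usp6nl and Lmnb1. For Nab1 they were Wsb1 (0.996), Hivep1, Ptpn23, Prkab2 and Gmeb2, and for Nab2 Arcn1 (0.989), Arid5a, Sept7, Xbp1 and Relb. Among the 6 genes themselves, Egr1 and Egr3 were most alike (0.980) and Egr1 and Nab2 least (0.800), while Nab2 was closest to Egr2 (0.944). The 18 points share 6 groups and 3 conditions, so these values mostly describe the order of the group means.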

How the data were processed

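RNA-seq of 18 libraries of splenic CD4 T cells was used. The authors aligned paired-end reads to mm9 with TopHat2 2.1.1, counted them per Ensembl gene with HTSeq 0.9.1 and deposited these raw counts, without normalization or pooling. The strand and overlap settings of the counting are not given in the sources used here. A blank last row per file (1) was left out.

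Groups follow the labels. Counts were scaled by TMM, and 17240 genes whose mean normalized count reached 3 in some group were tested in a model with 6 group means over all libraries, by the robust quasi-likelihood F test of edgeR 4.0.16 (R 4.3.3). Every adjusted p is a Benjamini-Hochberg value of this test over all tested genes. Differences in response are interaction contrasts. SE is the absolute log2 fold change over the square root of F. A floor of 3 counts per library gives lower bounds. CPM for correlations used a prior count of 2. Total counts of 10758571 to 24119489 leave Egr4 at rest as the least precise value. Symbols and exons came from an NCBIM37 annotation.

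The 6 genes and all gene lists were chosen with earlier results of these data known, so the lists are not independent evidence. Genes named from a list are its 3 highest and 3 lowest called genes with an average of at least 50 in T_Ag against N_Ag and in the difference of antigen responses, plus Cblb, Itch, Dgka, Dgkz, Lag3, Tnfrsf9, Nr4a1, Fos and Il2, and some genes that the rules select are not reported here. The alternatives were DESeq2 1.42.0, its size factors, no filter, only the groups compared, the replicate number as a block, marker scores or the Y-linked level as covariates, the study's call rule (DESeq2 adjusted p and edgeR p under 0.05 with a fold of at least 2), the longest transcript as gene length, and each library left out in turn. Fits of female or male libraries alone were chosen after seeing the data. The test was checked on simulated counts.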

Additional observations from a re-analysis of the deposited data

Results flagged for a closer look

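The response to antigen differed between tolerized and naive cells for 2 genes, by a test of the difference itself. It was larger in tolerized cells by 1.18 on the log2 scale for Egr1 and by 1.23 for Nab2, and all 3 T_Ag libraries of both genes lay above all N_Ag libraries. Both differences include the lower resting level in T_0, a call that rested on few libraries for Egr1. The response to PMA with ionophore was larger in tolerized cells by 0.59 for Egr1, 1.53 for Egr2, 1.20 for Egr3, 0.80 for Nab1 and 1.51 for Nab2. For Egr1, Egr3 and Nab2 these differences include a lower resting level in T_0, a call that rested on few libraries for Egr1 and Egr3. Egr1 was not called between the PI groups themselves with all groups in the model. In naive cells the resting libraries were female and the PI libraries male. In both states the PI cells were cultured and the resting cells were not. Egr4 was not among these genes, as its resting level was too near 0 for the difference to be estimated.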

How the results depend on the processing

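The number of genes called in each comparison stayed within 1.5 times its value with DESeq2, with its size factors, without the filter and with the Y-linked level as a covariate, which made Egr3 called in T_Ag against N_Ag and in the difference in antigen response. It moved at rest to 1 of 6 with only the groups compared or with female libraries alone, and to 0 with the marker scores or the study's call rule. With the marker scores it was 1 for T_Ag against N_Ag, 3 for T_PI against N_PI and 3 for the difference in PI response, and with the study's rule, which asks for a 2-fold change, 1, 2 and 3. Leaving out libraries gave 1 to 4 called genes at rest, with 1 without T_0 replicate 3 or N_0 replicate 3. The marker scores left 7 called among reported EGR targets, 3 among immediate-early genes, 1 in the ERK and SRF list and 1 in NuRD for T_Ag against N_Ag. Female libraries alone, with 1 in T_0, left 9 targets, 7 immediate-early genes and 5 of the ERK and SRF list with a called difference in antigen response, and left-out libraries gave 3 to 7 NuRD genes, with 7 without T_0 replicate 3 and 5 without N_Ag replicate 3 or N_0 replicate 1. The cause of these moves was not tested, except that female libraries are fewer. Over all tested genes, 1401 of 16099 were called higher and 962 lower at rest with only the groups compared. In the main fit these were 1452 and 2067 of 17240. Calls over all tested genes in the other fits are not given here. The moved counts are therefore not a result about the 6 genes or the lists alone.

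With the longest transcript as length, the share of Egr1 was 29.9% in N_Ag, 40.0% in T_Ag, 70.7% in N_PI and 59.4% in T_PI, that of Egr2 45.5%, 43.0%, 14.5% and 24.7%, and that of Egr3 24.5% in N_Ag. Egr2 in T_Ag against N_Ag reversed with the marker scores (-0.072). Egr4 at rest reversed with female libraries (-1.81). With libraries left out its difference in antigen response ran from -0.44 to 1.93, below 0 without N_0 replicate 1, and that in PI response from -1.49 to 0.89, below 0 without T_0 replicate 3 or N_0 replicate 1, all from 3 reads or fewer per library at rest. Nab2 in N_PI against N_Ag ran from -0.0039, without N_Ag replicate 1, to 0.19. None of these was a called value.

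The replicate numbers, shared by all groups, did not pair the libraries. The correlation of same-numbered libraries ran from -0.41 to 0.25, with 7 of 45 pairs over 0.1, and 2 of 18 libraries correlated best with their own number. With the replicate number as a block, 4 of the 6 genes were called in T_Ag against N_Ag and 3 at rest, and no count of called genes changed. Depth limited Egr4 at rest.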

Other observations

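The summed EGR level per kb was 0.737 ± 0.140 times the summed NAB level in N_0 and 0.656 ± 0.112 times in T_0 (SD, n = 3). It was 2.78 ± 0.311 times in N_Ag and 2.91 ± 0.394 times in T_Ag, so that both states had similar ratios after antigen although Egr1, Egr4 and Nab2 differed. After PI the ratio was 29.0 ± 1.09 in N_PI and 22.5 ± 0.893 in T_PI, and every T_PI library lay below every N_PI library, although each EGR gene had a higher mean in T_PI. No test was run on these ratios.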
